A study of Homo sapiens with 9 samples.

Results

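Oxidative phosphorylation subunits are encoded by 2 genomes, and their RNA was followed here in N/TERT keratinocytes with different amounts of SGPL1. The members were the protein-coding genes whose symbols name subunits of respiratory complexes I to IV or of the ATP synthase (complex V), with assembly factors left out. They numbered 102 of the 60671 genes in the count files, or of the 25939 genes with a count in at least 1 library. Of these, 89 lay on nuclear chromosomes and 13 on the mitochondrial chromosome (MT). The nuclear members comprised 38 genes of complex I, 4 of complex II, 9 of complex III, 19 of complex IV and 19 of complex V. The MT members comprised 7 genes of complex I, 1 of complex III, 3 of complex IV and 2 of complex V. NDUFA4 and NDUFA4L2 carry complex I symbols and were placed with complex IV, where the NDUFA4 protein is now assigned.

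Respiratory complexes in the inner mitochondrial membrane pass electrons from NADH and succinate to oxygen and pump protons, and the ATP synthase uses the resulting gradient to make ATP. Nuclear subunit mRNAs are translated in the cytosol and their proteins are imported, whereas the MT genes are transcribed as long polycistronic RNAs inside the organelle, cut at tRNAs and translated there. Complexes I, III, IV and V need subunits from both genomes, and complex II is wholly nuclear.

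N/TERT is a human epidermal keratinocyte line immortalised with telomerase. The KO group consisted of SGPL1 knockout N/TERT cells made with CRISPR, the OE group of N/TERT cells overexpressing SGPL1, and the control group of wild-type N/TERT cells, with 3 libraries each and no treatment in any. SGPL1 is the lyase of the endoplasmic reticulum that irreversibly cleaves sphingosine 1-phosphate. The labels do not say whether the KO cells were 1 clone or which promoter drove the overexpression. They call the samples biological replicates without naming separate cultures, so p-values measure the spread between these libraries.

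Libraries held 6317564 to 13330479 counts in genes. As a check of the labels, SGPL1 had 58.8, 58.3 and 61.6 CPM (counts scaled to a common library size) in KO, 1132, 1104 and 929 CPM in OE, and 83.9, 95.1 and 98.3 CPM in control. The groups did not overlap and each lay on the side its label gives. The check is weaker for KO, whose mean was 0.644 times the control mean. Of all tested genes, 29.4% lay lower in KO than in control without overlap. Keratinocyte markers were present in every library, with 10 of 10 genes detected, but their summed level was 16410 to 17715 CPM in KO, 36113 to 39069 CPM in OE and 32193 to 32797 CPM in control. Fibroblast markers summed to 8.46 to 15.1 CPM in KO, 24.5 to 28.4 CPM in OE and 21.5 to 28.3 CPM in control, with COL3A1 and LUM at 0. Melanocyte markers summed to 69.2 to 76.5 CPM in KO, 60.02 to 71.4 CPM in OE and 89.7 to 101.2 CPM in control, with TYR and DCT at 0. Blood and endothelial markers summed to at most 1.58 CPM in any library, with PTPRC, CD3E, LYZ, PECAM1 and HBB at 0. The part that the lower keratinocyte marker level plays in the KO results was not tested.

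Another feature moved with the KO group and bears on every KO value. In the KO libraries, the deviation of a gene's log2 CPM from its mean over the control libraries fell by 0.226, 0.204 and 0.223 for each doubling of exon length. The slope lay between -0.070 and 0.047 in OE libraries and between -0.026 and 0.019 in control libraries. Nuclear members were short among tested genes, with a median exon length of 2475 bases against 5038.5 bases over all 13390 genes tested, and MT members were shorter still, with a median of 784 bases. KO results are therefore given as fitted and, for counts and for fold changes that it moved most, also from a fit in which each library's trend over exon length and GC content was removed, called the trend-removed fit below.

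The genomes parted in KO cells. Nuclear members together had more RNA in KO than in control, MT members had less, and the ratio of MT to nuclear RNA in KO was 0.332 times the control ratio. In OE cells the nuclear sum was close to that of control and the MT sum was lower. In bulk RNA, fewer cells of a type and less RNA per cell cannot be told apart.

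Summed over the 89 nuclear members, KO libraries had 13159, 12718 and 13347 CPM, OE libraries 6367, 6159 and 7628 CPM, and control libraries 8039, 7427 and 7268 CPM. Every KO library lay above every other library, and OE and control libraries overlapped. The KO mean of 13075 ± 323 CPM was 1.73 times the control mean of 7578 ± 407 CPM, and the OE mean of 6718 ± 795 CPM was 0.887 times the control mean (SD, n = 3 each).

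Summed over the 13 MT members, KO libraries had 6858, 10376 and 11601 CPM, OE libraries 10527, 12081 and 11883 CPM, and control libraries 15549, 17059 and 17573 CPM. All KO and OE libraries lay below all control libraries, KO and OE overlapped, and KO replicate 1 was the lowest of all. The KO mean was 9611 ± 2462 CPM, or 0.575 times the control mean of 16727 ± 1052 CPM, and it was 10988 CPM without KO replicate 1. The OE mean of 11497 ± 846 CPM was 0.687 times the control mean.

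The ratio of MT to nuclear CPM was 0.521, 0.816 and 0.869 in KO libraries, 1.65, 1.96 and 1.56 in OE libraries, and 1.93, 2.30 and 2.42 in control libraries. KO libraries lay below all others, while OE replicate 2 lay above control replicate 1. The mean ratio was 0.735 ± 0.187 in KO, 1.72 ± 0.211 in OE and 2.22 ± 0.252 in control. Per kilobase of exon, which allows for the shorter MT genes, the ratio was 1.73 in KO, 4.05 in OE and 5.28 in control. This division uses the same gene lengths in every library, so the KO trend over exon length stays in it. The sums and ratios are given only without that trend removed. No test was run on these sums because the members were chosen as a set.

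**Figure D1:**
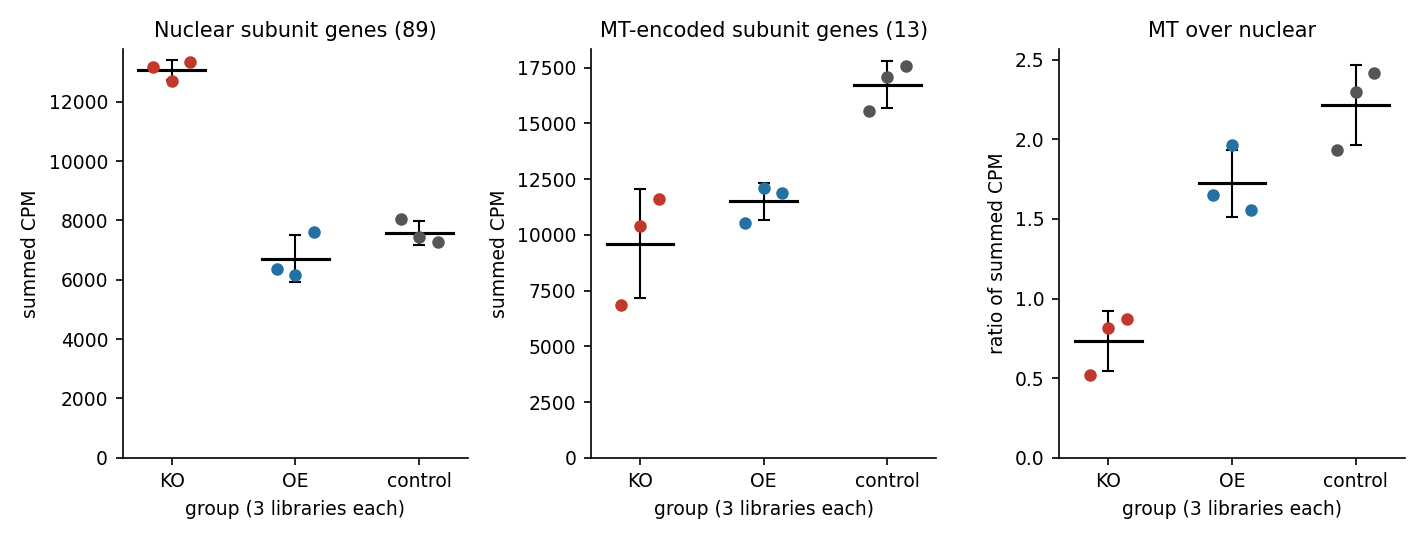
Summed CPM of the 89 nuclear subunit genes, summed CPM of the 13 MT subunit genes, and their ratio, for 3 libraries a group; dots are libraries, wide bars are means and error bars are 1 SD. KO libraries had the highest nuclear sums, at 12718 to 13347 CPM, and the lowest ratios, at 0.521 to 0.869.

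The same split was seen within each complex built from both genomes. The ratio of MT to nuclear CPM in complex I was 0.843 ± 0.246 in KO, 2.20 ± 0.278 in OE and 2.94 ± 0.307 in control. In complex IV it was 2.33 ± 0.563 in KO, 6.15 ± 1.00 in OE and 7.69 ± 1.01 in control. The KO ratio was 0.286 times the control ratio in complex I, 0.323 times in complex III, 0.303 times in complex IV and 0.304 times in complex V.

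The first comparison, KO against control, asks what changed when SGPL1 was disrupted. Of the 89 nuclear members, 77 had enough counts to be tested and 12 did not. In KO, 70 of the 77 were higher and 1 was lower at an adjusted p under 0.05, by edgeR's quasi-likelihood test adjusted over all genes tested, against 26.0% higher and 25.9% lower of all tested genes. Their median log2 fold change was 0.84, against -0.0047 over all genes tested. With the length and GC trend removed 66 were higher and 1 lower, with a median of 0.55 against 0.02 over all genes, where 24.8% were higher and 20.7% lower. In both fits 63 were higher. For 71 of the 77, every KO library lay above every control library, against 30.0% of all tested genes.

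**Figure D2:**
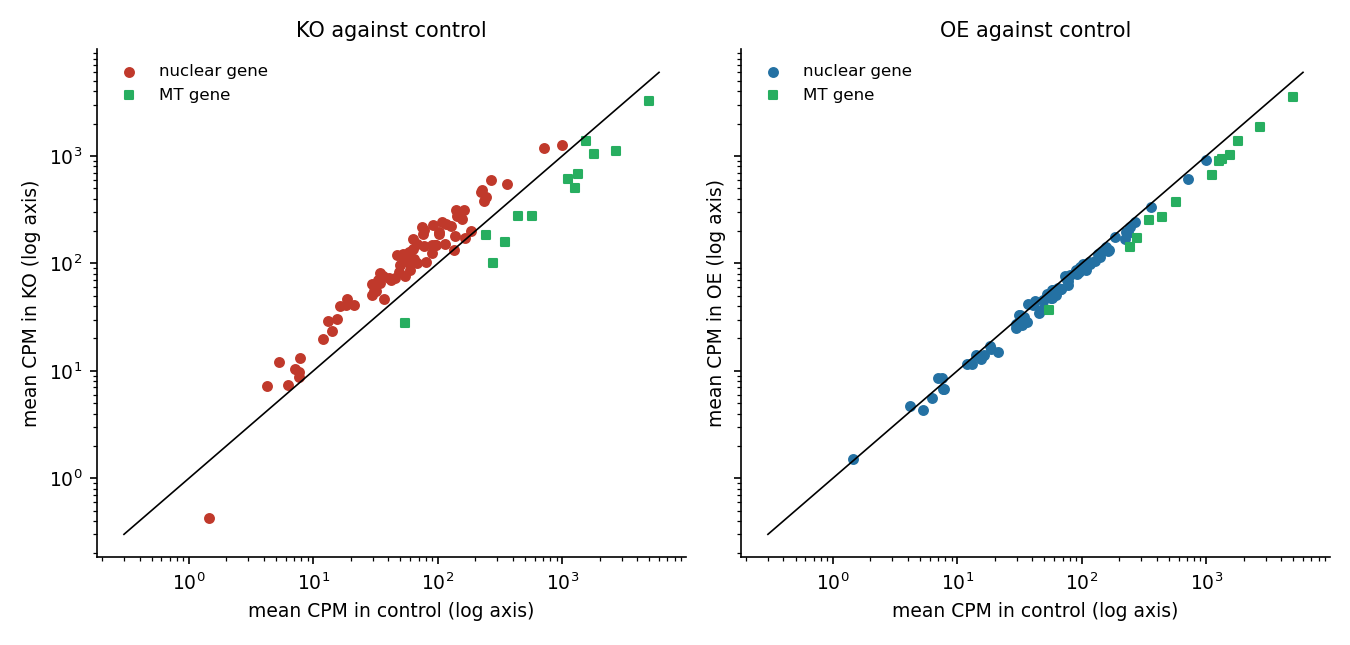
Mean CPM of the 90 tested members in KO (left) and OE (right) against control, both axes on a log scale; circles are nuclear genes, squares are MT genes, and the line marks equal levels. In KO most circles lay above the line and all squares below it, and in OE circles lay near the line and all 13 squares below it.

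Complex I takes electrons from NADH. Of its 35 tested nuclear members, 29 were higher and 1 lower in KO, with a median log2 fold change of 0.77, and 28 were higher in the trend-removed fit, with a median of 0.47. NDUFB5, an accessory subunit of the membrane arm, had 193, 194 and 220.2 CPM in KO and 82.2, 72.1 and 78.7 CPM in control. Every KO library exceeded every control library by a wide margin (log2 fold change 1.38, SE 0.10, adjusted p = 7.54e-11), and the trend-removed value was 1.24. NDUFA3, another accessory subunit, had 52.9, 45.97 and 42.1 CPM in KO and 19.2, 17.7 and 19.4 CPM in control. It rose by 1.33 on the log2 scale (SE 0.15, adjusted p = 1.56e-07), with 1.17 in the trend-removed fit.

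Some core subunits of complex I that the nucleus encodes did not pass as fitted. NDUFS1, the largest iron-sulfur subunit, had 172, 165 and 175 CPM in KO and 165, 164 and 169.9 CPM in control, so the groups overlapped (log2 fold change 0.04, adjusted p = 0.69). Its trend-removed value was 0.34 (adjusted p = 0.00035). NDUFV1, which binds NADH, had a log2 fold change of 0.12 (adjusted p = 0.19) and passed in the trend-removed fit at 0.41; it is named after its values were seen.

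Other members that missed the threshold as fitted included NDUFA9, NDUFA11 and, in complex II, SDHA. NDUFA9 had a log2 fold change of 0.36 and passed in the trend-removed fit at 0.61 (adjusted p = 0.047), and NDUFA11 had a log2 fold change of 0.23 and did not pass in either fit (0.57 in the trend-removed fit). The member that was lower in KO was NDUFA13, an accessory subunit. NDUFA9, NDUFA11 and NDUFA13 are named after their values were seen. It rested on 10 counts in KO and 40 counts in control over 3 libraries each (0.423 ± 0.075 CPM and 1.46 ± 0.401 CPM; log2 fold change -1.73, adjusted p = 0.021), and 21.0% of its exon bases also lie in other genes.

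Complex II, succinate dehydrogenase, joins the citric acid cycle to the chain. SDHC, a membrane anchor, had 229, 229 and 240.3 CPM in KO and 132, 116 and 100.4 CPM in control. It rose by 1.00 on the log2 scale (SE 0.11, adjusted p = 9.14e-08), and by 0.69 in the trend-removed fit. SDHD, the other anchor, had 120.4, 113 and 123 CPM in KO and 61.5, 54.5 and 55.3 CPM in control, without overlap. It rose by 1.06 (SE 0.09, adjusted p = 3.23e-09), and by 0.62 in the trend-removed fit.

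SDHB, the iron-sulfur subunit, had 115, 117 and 139 CPM in KO and 99.5, 80.3 and 90.1 CPM in control. It rose by 0.46 as fitted (SE 0.11, adjusted p = 0.0010), but its trend-removed value of 0.15 did not pass (adjusted p = 0.19). SDHA, the flavoprotein, had 9.64, 7.18 and 9.64 CPM in KO and 6.00, 8.01 and 8.99 CPM in control, and the groups overlapped (log2 fold change 0.19, adjusted p = 0.51; 0.53 and adjusted p = 0.069 in the trend-removed fit). SDHA has near-identical pseudogene copies, so its reads are uncertain.

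Complex III passes electrons from ubiquinol to cytochrome c, and all 9 of its nuclear members were higher in KO, with a median log2 fold change of 0.75. With the trend removed 8 of 9 were, with a median of 0.49. UQCRQ, a small subunit that contacts cytochrome b, had 125, 111 and 112 CPM in KO and 58.8, 52.7 and 43.03 CPM in control. All KO libraries lay above all control libraries (log2 fold change 1.17, SE 0.12, adjusted p = 1.55e-08; 0.88 in the trend-removed fit). UQCR10, another small subunit, had 28.6, 30.1 and 31.8 CPM in KO and 16.6, 12.96 and 16.5 CPM in control, a rise of 0.97 (SE 0.16, adjusted p = 1.98e-05; 0.47 in the trend-removed fit).

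Complex IV, cytochrome c oxidase, had the largest nuclear difference. Its nuclear members summed to 2458, 2383 and 2482 CPM in KO and to 1194, 1063 and 1034 CPM in control, a ratio of means of 2.22. All 12 tested members were higher in KO in both fits, with a median log2 fold change of 1.15 as fitted and 0.72 in the trend-removed fit. COX7A2L, a COX7A-related protein that links complexes III and IV in supercomplexes, had 208, 219 and 224 CPM in KO and 77.4, 77.1 and 67.4 CPM in control. It had the largest rise of any nuclear member, by 1.55 on the log2 scale (SE 0.11, adjusted p = 5.85e-11), and 1.48 in the trend-removed fit. NDUFA4 had 157, 169 and 177 CPM in KO and 68.1, 65.6 and 54.2 CPM in control, a rise of 1.42 (SE 0.17, adjusted p = 2.02e-07; 1.04 in the trend-removed fit).

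By median log2 fold change the nuclear members of complex V followed, at 1.08, with 17 of 17 tested higher in KO. In the trend-removed fit 16 were higher, with a median of 0.70. By the ratio of summed means they did not, with 1.66 against 1.79 in complex II and 1.69 in complex III. ATP5MC2, which encodes the c subunit of the rotor ring, had 227, 225 and 232 CPM in KO and 99.2, 89.2 and 86.9 CPM in control. It rose by 1.31 (SE 0.10, adjusted p = 2.03e-10), and by 1.19 in the trend-removed fit. ATP5PO, the stalk subunit that confers oligomycin sensitivity, had 40.9, 35.9 and 43.97 CPM in KO and 19.7, 15.3 and 14.4 CPM in control, a rise of 1.29 (SE 0.16, adjusted p = 6.55e-07; 0.94 in the trend-removed fit). ATP5F1B, the catalytic beta subunit, had the smallest rise in the complex at 0.32, with a trend-removed value of 0.04 that did not pass (adjusted p = 0.61); it is named after its values were seen.

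**Figure D3:**
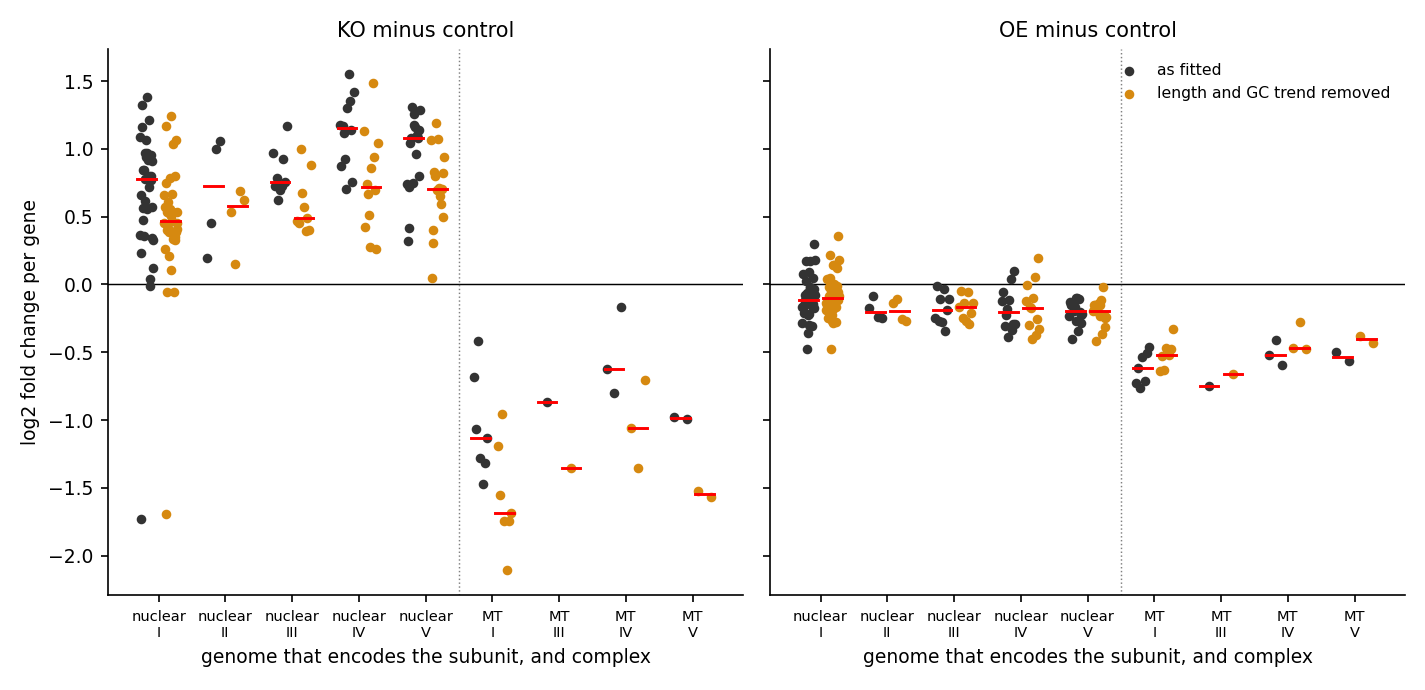
Log2 fold change of each tested member by genome and complex, KO minus control (left) and OE minus control (right); black dots are as fitted, orange dots have the length and GC trend removed, and red bars are medians. Nuclear medians in KO lay between 0.73 and 1.15 as fitted and between 0.47 and 0.72 with the trend removed, and every MT dot lay below 0 in both panels.

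The MT members moved the other way in KO. As fitted, 12 of the 13 were lower, the remaining gene, MT-CO3, did not pass, and the median log2 fold change was -0.98. With the trend removed 13 of 13 were lower, with a median of -1.52. Of all tested genes, 25.9% were called lower as fitted and 20.7% with the trend removed. For 12 of the 13, all KO libraries lay below all control libraries, against 29.4% of all tested genes. KO replicate 1 was the lowest KO library for each MT gene, and without it 12 were still called lower as fitted and 13 in the trend-removed fit.

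MT genes overlap or abut, which bounds what a gene's count can hold. MT-ATP8 encodes a small membrane subunit of the ATP synthase in the same transcript as MT-ATP6, and its last 46 bases, in capitals, also code for the start of MT-ATP6; it is shown because reads in those bases cannot be assigned to either gene (GENCODE release 29, GRCh38, MT:8366-8572, plus strand).
MT-ATP8: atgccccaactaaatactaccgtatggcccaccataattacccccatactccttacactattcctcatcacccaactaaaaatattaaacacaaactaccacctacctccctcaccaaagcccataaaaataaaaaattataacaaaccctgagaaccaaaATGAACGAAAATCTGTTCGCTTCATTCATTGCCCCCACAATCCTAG

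The 7 MT genes of complex I encode the core of its membrane arm, which pumps protons. MT-ND4 had 765, 1239 and 1352 CPM in KO and 2497, 2777 and 2851 CPM in control. It fell by 1.28 on the log2 scale without overlap (SE 0.13, adjusted p = 2.83e-08), and its trend-removed value was -1.74. MT-ND4L, which shares 7 bases with MT-ND4, had 66.4, 103 and 135 CPM in KO and 298, 247 and 295 CPM in control. Its fall was the largest of the 13 (log2 fold change -1.47, SE 0.15, adjusted p = 2.39e-08; -2.11 in the trend-removed fit).

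MT-ND5 had 315, 617 and 589.8 CPM in KO and 1086, 1276 and 1428 CPM in control, without overlap (log2 fold change -1.32, adjusted p = 2.47e-07; -1.74 in the trend-removed fit). MT-ND2 had 185, 279.8 and 358 CPM in KO and 551, 588 and 581 CPM in control (log2 fold change -1.07, adjusted p = 8.51e-07; -1.55 in the trend-removed fit). Every KO library lay below every control library for both. MT-ND1 had 192, 288 and 354 CPM in KO and 423, 449.7 and 461 CPM in control, a fall of 0.68 (adjusted p = 0.00014; -1.19 in the trend-removed fit).

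MT-ND3 had 166, 178 and 205 CPM in KO and 259, 243 and 231 CPM in control, the smallest fall in the complex (log2 fold change -0.42, adjusted p = 0.00098; -0.95 in the trend-removed fit). MT-ND6 is the only member on the other strand, and its mRNA is known to lack a poly-A tail. It had 115, 172 and 189 CPM in KO and 312, 358 and 369 CPM in control (log2 fold change -1.13, adjusted p = 7.75e-08; -1.68 in the trend-removed fit). The counting set no strand, so reads from the opposite strand at MT-ND6 cannot be told apart from its own.

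MT-CYB encodes cytochrome b, the MT subunit of complex III. It had 428, 651 and 739 CPM in KO and 1031, 1114 and 1172 CPM in control, without overlap, and fell by 0.87 (SE 0.12, adjusted p = 3.54e-06; -1.35 in the trend-removed fit).

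The MT genes of complex IV encode its core, and MT-CO3 among them had the smallest MT difference in KO. MT-CO1, which encodes the catalytic subunit and was the most abundant member, had 2297, 3562 and 3934 CPM in KO and 4585, 5055 and 5413 CPM in control. It fell by 0.62 (SE 0.13, adjusted p = 0.000235; -1.06 in the trend-removed fit). MT-CO2, the subunit that receives electrons from cytochrome c, had 779, 1070.2 and 1280.1 CPM in KO and 1756, 1933 and 1754 CPM in control, a fall of 0.80 (adjusted p = 3.86e-06; -1.36 in the trend-removed fit).

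MT-CO3 had 1079, 1418 and 1625 CPM in KO and 1473, 1578 and 1578 CPM in control. KO replicate 3 exceeded every control library, and the difference did not pass as fitted (log2 fold change -0.17, SE 0.11, adjusted p = 0.19). It passed with the trend removed, at -0.71 (adjusted p = 7.81e-06).

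In complex V, MT-ATP6, the proton channel subunit, had 449.5, 765 and 810.3 CPM in KO and 1219, 1386 and 1387 CPM in control. It fell by 0.98 (SE 0.13, adjusted p = 1.96e-06; -1.52 in the trend-removed fit). MT-ATP8 had 21.9, 30.8 and 30.1 CPM in KO and 58.4, 53.3 and 53.03 CPM in control, a fall of 0.99 (adjusted p = 3.38e-06; -1.57 in the trend-removed fit). Both genes separated the groups completely.

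The mitochondrial ribosomal RNAs, which come from the same strand as most MT mRNAs, did not follow them in KO. MT-RNR1 had 407, 328 and 476 CPM in KO, 137, 161 and 177 CPM in OE, and 248, 228 and 219.7 CPM in control. It was higher in KO (log2 fold change 0.80, adjusted p = 1.7e-06; 0.29 in the trend-removed fit) and lower in OE (log2 fold change -0.55, adjusted p = 0.00085). MT-RNR2 had 2085, 2478 and 2695 CPM in KO, 1163, 1302 and 1418 CPM in OE, and 2199, 2191 and 2222 CPM in control, and in KO it did not pass as fitted (log2 fold change 0.13, adjusted p = 0.22) but was lower in the trend-removed fit (-0.33, adjusted p = 0.0012).

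The ratio of MT member CPM to MT rRNA CPM was 2.75, 3.70 and 3.66 in KO libraries, 8.10, 8.26 and 7.45 in OE libraries, and 6.35, 7.05 and 7.20 in control libraries. KO libraries lay below all others and OE libraries above all control libraries. These libraries were poly-A selected, so the rRNA counts come from what that step kept.

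**Figure D4:**
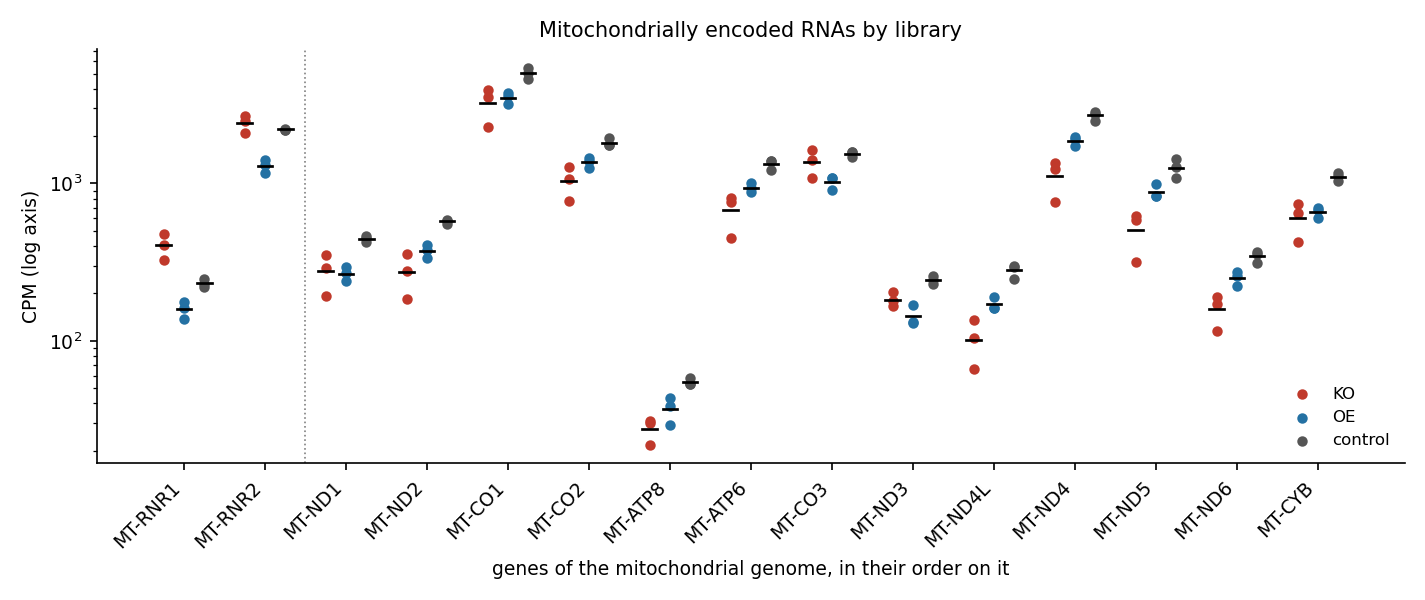
CPM of the MT ribosomal RNA genes (left of the dotted line) and the 13 MT subunit genes in each library, in their order on the mitochondrial genome and on a log axis; dots are libraries and bars are means of 3. Every subunit gene except MT-CO3 had all KO dots below all control dots, whereas MT-RNR1 had all KO dots above them.

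The genome also holds many partial nuclear copies of MT genes. Reads counted in 404 such copies summed to 165 CPM in KO, 222 CPM in OE and 328 CPM in control. These sums were small beside the MT sums and lower in KO as well. Pseudogenes of nuclear members, 195 in number, summed to 30.03 CPM in KO, 37.7 CPM in OE and 36.6 CPM in control, and were not higher in KO, unlike their parent genes. Reads that map to several places were not kept by the counting. The sums therefore cannot show how many reads members share with their copies.

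The second comparison, OE against control, asks what changed when SGPL1 was in excess. Of the 77 tested nuclear members, 0 were higher and 10 (12.99%) lower in OE, against 9.28% higher and 9.34% lower of all tested genes by the same edgeR test. No nuclear member was higher at an unadjusted p under 0.05 either (0 of 77), nor by DESeq2 (0) or limma-voom (0). Of the 77 log2 fold changes 67 were below 0, with a median of -0.16, against -0.0066 over all genes. For 9 members all OE libraries lay below all control libraries and for 0 above them, against 17.6% and 17.2% of all tested genes. In the trend-removed fit 13 were lower, with a median of -0.15, and 9 genes were lower in both fits; over all genes 10.7% were higher and 10.5% lower. The count of lower members turned on single libraries: it was 32 without OE replicate 3, 2 without OE replicate 1, 1 without OE replicate 2, 1 without control replicate 1, and 5 without control replicate 2 or control replicate 3.

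The 10 lower members came from complexes I, III, IV and V, with 0 of the 4 SDH genes as fitted (2 at an unadjusted p under 0.05, 0 by DESeq2 and 0 by limma-voom). In the trend-removed fit 1 of the 4, SDHD, was lower (-0.27, adjusted p = 0.025). UQCRC2, a core protein of complex III, had 193, 184 and 202 CPM in OE and 249, 231 and 221 CPM in control, without overlap. It fell by 0.27 on the log2 scale (SE 0.08, adjusted p = 0.013; -0.27 in the trend-removed fit). NDUFS1 had 135, 135 and 133 CPM in OE against the control values given above, and had the smallest adjusted p of the nuclear members (log2 fold change -0.31, SE 0.07, adjusted p = 0.0050).

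ATP5F1E, the epsilon subunit of the ATP synthase, had 151, 148 and 207 CPM in OE and 268, 214 and 189 CPM in control, and OE replicate 3 overlapped the control range (log2 fold change -0.40, adjusted p = 0.022). COX6C, a small complex IV subunit, had 35.4, 27.3 and 40.3 CPM in OE and 51.8, 39.7 and 43.5 CPM in control, again with overlap (log2 fold change -0.38, adjusted p = 0.039). ATP5PF, a stalk subunit, had 47.4, 46.8 and 49.1 CPM in OE and 56.9, 57.9 and 59.7 CPM in control, without overlap (log2 fold change -0.28, adjusted p = 0.034). The other lower members were UQCRH at -0.34, UQCRB at -0.27, COX7C at -0.29, NDUFB5 at -0.30 and ATP5F1A at -0.23.

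Of these 10, 9 were also called higher in KO as fitted, against 90.9% of all tested nuclear members. NDUFS1 was not, but it was higher in KO and lower in OE in the trend-removed fit (0.34 in KO and -0.28 in OE). Both comparisons use the same control libraries. Log2 fold changes were 0.93 in KO (0.49 in the trend-removed fit) and -0.34 in OE for UQCRH, the hinge protein of complex III, and 1.14 in KO (0.70 in the trend-removed fit) and -0.29 in OE for COX7C. They were 0.74 in KO and -0.23 in OE for ATP5F1A, the alpha subunit of the ATP synthase, whose OE value did not pass in the trend-removed fit.

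In OE the MT members were lower throughout. All 13 were called lower, against 9.34% of all tested genes, and the median log2 fold change was -0.57. For all 13, every OE library lay below every control library, against 17.6% of all tested genes. In the trend-removed fit 11 were lower, against 10.5% of all tested genes, with a median of -0.47, and MT-ND6 and MT-CO2 did not pass. MT-ND3 had 132, 129 and 168 CPM in OE, against control values of 231 to 259 CPM, the largest fall (log2 fold change -0.77, SE 0.10, adjusted p = 4.82e-06). MT-CYB had 605, 699 and 674 CPM in OE, a fall of 0.75 (SE 0.12, adjusted p = 0.00012), and MT-CO2, at the other end, had 1263, 1392 and 1445 CPM in OE (log2 fold change -0.41, adjusted p = 0.014). MT-ND4 had 1722, 1986 and 1908 CPM in OE, a fall of 0.53 (adjusted p = 0.0046).

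The third comparison set KO against OE. Of the 77 nuclear members, 69 were higher and 1 lower in KO, with a median log2 fold change of 0.97, against 28.6% higher and 29.0% lower of all tested genes. With the trend removed 68 were higher and 1 lower, with a median of 0.71, against 28.0% and 25.1% of all genes. The lower member was again NDUFA13. KO and OE libraries did not overlap for 70 higher members, against 30.5% of all tested genes.

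The MT members depended on the fit in this comparison. As fitted, 2 were higher in KO (MT-CO3 at 0.43 and MT-ND3 at 0.35), 8 were lower and 3 did not pass, with a median of -0.43. With the trend removed 0 were higher (0 at an unadjusted p under 0.05; DESeq2 and limma-voom, without that step, called 2 each) and 12 lower, with a median of -1.08, and MT-CO3 did not pass. For 5 MT members all KO libraries lay below all OE libraries, against 31.1% of all tested genes, and for 8 they overlapped. MT-ND5 differed most as fitted, with 315, 617 and 589.8 CPM in KO and 837, 990.3 and 839 CPM in OE, without overlap (log2 fold change -0.81, adjusted p = 0.00010; -1.27 in the trend-removed fit). MT-ND1 did not pass as fitted, with 192, 288 and 354 CPM in KO and 241, 269.8 and 293 CPM in OE (log2 fold change 0.05, adjusted p = 0.78), and was lower in KO in the trend-removed fit at -0.55.

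The levels of members spanned a wide range in every group. Per kilobase of exon, the median MT member stood at 529 CPM per kilobase in KO, 575 in OE and 943 in control, and the median tested nuclear member at 47.1 in KO, 21.5 in OE and 23.2 in control. ATP5F1B was the highest nuclear member, with 562 CPM per kilobase in KO, 411 in OE and 449 in control. Some subunits that every cell uses had few counts, and NDUFV2 and NDUFA7 are named for this after their values were seen. NDUFV2, a core flavoprotein partner of NDUFV1, had 9 counts in KO, 9 in OE and 5 in control, and NDUFA7 had 5 counts in KO, 9 in OE and 4 in control. Exon bases shared with other genes made up 28.4% of NDUFV2 and 32.5% of NDUFA7, and reads that map to several places or overlap several genes were not kept by the counting, and their part in these low counts was not tested.

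Isoforms known from other tissues were nearly absent. COX6A2, a heart and muscle isoform, and COX7B2 and COX8C had 0 counts in all libraries. COX4I2, a lung isoform, had 2 counts in KO, 0 in OE and 0 in control. ATP5MGL had 2 counts in KO, 0 in OE and 0 in control. COX7A1, of heart and muscle, had 0 counts in KO, 1 in OE and 5 in control. NDUFA4L2, a hypoxia-induced relative of NDUFA4, had 2 counts in KO, 19 in OE and 4 in control, and COX6B2, of testis, had 16 in KO, 29 in OE and 26 in control. A count of 0 allows up to 0.225 to 0.475 CPM, depending on the library, for counting error only.

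UQCRHL, a gene without introns that nearly copies UQCRH, was the only isoform of this kind that could be tested. It had 12.9, 14.6 and 12.2 CPM in KO and 8.84, 8.43 and 6.29 CPM in control (log2 fold change 0.75, adjusted p = 0.0093; 0.40 and adjusted p = 0.14 in the trend-removed fit), and reads may be split between the copies. The read-through genes NDUFC2-KCTD14 and ATP5MF-PTCD1 share nearly all their exon bases with their parent genes and had 0 and at most 6 counts in a group.

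The promoters of nuclear members were searched for 3 motifs that the choice of members did not use. RefSeq (GRCh38.p14) gave a promoter from 250 bases before to 50 bases after the start site for 70 of the 89. On both strands, a site of the factor NRF1 (GCGC, then A and any base, then GCGC) was present in 17 of the 70 (24.3%), against 5.78% of 35116 promoters. CCGGAAG, a site of ETS factors such as GABPA, was present in 20 (28.6%), against 10.3%, and AAGATGGC, a site of YY1, in 11 (15.7%), against 2.89%. At least 1 of these was present in 39 (55.7%), against 17.0% of all promoters. Each member entered with 1 promoter, whereas the 35116 took every listed promoter, with no limit per gene or to expressed genes. The shares are therefore not of like units. A match describes letters and shows no binding. Members that did not pass in KO as fitted had matches too, among them SDHA with the NRF1 site and NDUFS1 with the ETS site. Stretches of at most 30 bases around a match, with the match in capitals, are shown for 3 members that were higher in KO: for SDHD at chr11:112086753-112086782 (plus strand), for UQCRQ at chr5:132866578-132866604 (plus strand) and for ATP5PF at chr21:25735094-25735121 (minus strand).
SDHD, NRF1 site: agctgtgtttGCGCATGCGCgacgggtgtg
UQCRQ, ETS site: atggtatctcCCGGAAGttacctcacg
ATP5PF, YY1 site: aggcgaagaaAAGATGGCggaggctgtg

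Members with and without a match were both higher in KO by their medians. The median log2 fold change in KO was 0.72 for the 16 tested members with the NRF1 site and 0.92 for the 47 without it, and in the trend-removed fit it was 0.55 in both. For the ETS site it was 0.99 in 20 members with it and 0.80 in 43 without it, with trend-removed medians of 0.61 and 0.53. For the YY1 site it was 0.80 in 10 members with it and 0.92 in 53 without it, and the order turned in the trend-removed fit, with 0.64 and 0.53.

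Around the subunits, 6 lists of mitochondrial genes gave a context, with 147 genes in all. Their counts in KO stand against 26.0% higher and 25.9% lower of all tested genes as fitted and 24.8% and 20.7% with the trend removed, and those in OE against 9.28% and 9.34%. Assembly factors put the complexes together without staying in them, and 27 of the 46 tested were higher and 0 lower in KO (18 higher and 1 lower in the trend-removed fit; the 0 held at an unadjusted p under 0.05 and by DESeq2 and limma-voom), with a median log2 fold change of 0.51 as fitted and 0.27 in the trend-removed fit. UQCC2, an assembly factor of complex III, had 50.1 ± 15.5 CPM in KO and 16.7 ± 0.559 CPM in control (log2 fold change 1.57, adjusted p = 4.21e-08). COA3 rose by 1.19 and COA6 by 1.20 (0.98 and 0.78 in the trend-removed fit), both factors of complex IV. In OE, 1 assembly factor was higher (CMC1, at 0.72) and 2 were lower (UQCC1 at -0.44 and COX15 at -0.48).

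Genes for the upkeep and expression of mitochondrial DNA were mixed, with 10 higher and 4 lower of 28 in KO, and 6 higher (21.4%, below the share of all genes) and 2 lower in the trend-removed fit. TFB2M, a transcription factor of the MT promoters, had 46.5 ± 3.76 CPM in KO and 17.8 ± 1.72 CPM in control and rose by 1.38 (adjusted p = 5.8e-09; 0.93 in the trend-removed fit). SLIRP, which with LRPPRC binds and stabilises MT mRNAs, rose by 0.96 (0.51 in the trend-removed fit), and TRMT10C, a subunit of the enzyme that cuts tRNAs from the transcripts, by 0.90 (0.45). LRPPRC had 357 ± 10.2 CPM in KO, 249 ± 19.2 CPM in OE and 294 ± 15.4 CPM in control. It rose by 0.28 in KO (adjusted p = 0.0043; 0.49 in the trend-removed fit) and fell by 0.24 in OE (adjusted p = 0.037), where it was the only gene of the list to pass as fitted. In the trend-removed fit MTERF3 also passed in OE, in the other direction, at 0.66 (adjusted p = 0.041).

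Of 8 tested regulators of nuclear subunit genes, 1 was higher and 3 lower in KO as fitted, and 3 were higher and 2 lower in the trend-removed fit. PPRC1, a relative of the coactivator PGC-1alpha, had 26.3 ± 0.972 CPM in KO, 66.3 ± 7.75 CPM in OE and 43.5 ± 5.11 CPM in control. It fell by 0.73 in KO (adjusted p = 2.39e-05; -0.42 in the trend-removed fit) and rose by 0.61 in OE (adjusted p = 0.00040). PPARGC1B, another coactivator of the family, fell by 0.93 in KO (adjusted p = 2.48e-05; -0.41 in the trend-removed fit), and the receptor PPARA by 0.63 (-0.17 and not past the threshold in the trend-removed fit). NRF1 itself had 7.28 ± 0.700 CPM in KO and 8.26 ± 1.57 CPM in control and did not pass (log2 fold change -0.17, adjusted p = 0.54). ESRRA, an orphan receptor, fell by 0.31 in OE (adjusted p = 0.016); in KO its log2 fold change was 0.05 as fitted, and it was higher in the trend-removed fit at 0.20 (adjusted p = 0.046).

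Electron carriers and carriers of ADP and phosphate had 12 higher and 0 lower of 20 in KO (11 and 1 in the trend-removed fit; the 0 held at an unadjusted p under 0.05 and by DESeq2 and limma-voom), with a median of 0.47. SLC25A5, an ADP/ATP carrier, had 693 ± 5.07 CPM in KO and 354 ± 12.9 CPM in control and rose by 0.97 (adjusted p = 2.76e-09; 0.56 in the trend-removed fit). SLC25A6 rose by 0.82, and ETFA, which feeds electrons from fatty acid oxidation, by 0.87. In OE, COQ2 of ubiquinone synthesis rose by 0.43 and ETFDH fell by 0.39, each the only gene of the list to pass in its direction.

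Of the citric acid cycle genes, 9 were higher and 2 lower of 18 in KO (8 and 3 in the trend-removed fit), with a median of 0.17. The succinyl-CoA ligase subunits SUCLG1 and SUCLG2 rose by 0.93 and 0.79 (0.65 and 0.38 in the trend-removed fit) and PDHB of pyruvate dehydrogenase by 0.90 (0.77). In OE 1 was higher and 3 lower, among them SUCLG2 at -0.37, IDH3G at -0.39 and DLD at -0.27.

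Mitochondrial import and outer membrane genes had 12 higher and 2 lower of 20 in KO in both fits. TOMM20, an import receptor, had 707 ± 58.2 CPM in KO and 243 ± 6.88 CPM in control and rose by 1.54 (adjusted p = 9.57e-13), with 1.17 in the trend-removed fit. TOMM22 rose by 0.97 and the channel VDAC3 by 0.75 (0.62 and 0.38 in the trend-removed fit). In OE 2 were higher (TOMM40 at 0.53 and TIMM44 at 0.38) and 2 lower, among them APOOL at -0.36, which was also lower in KO at -0.77.

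**Figure D5:**
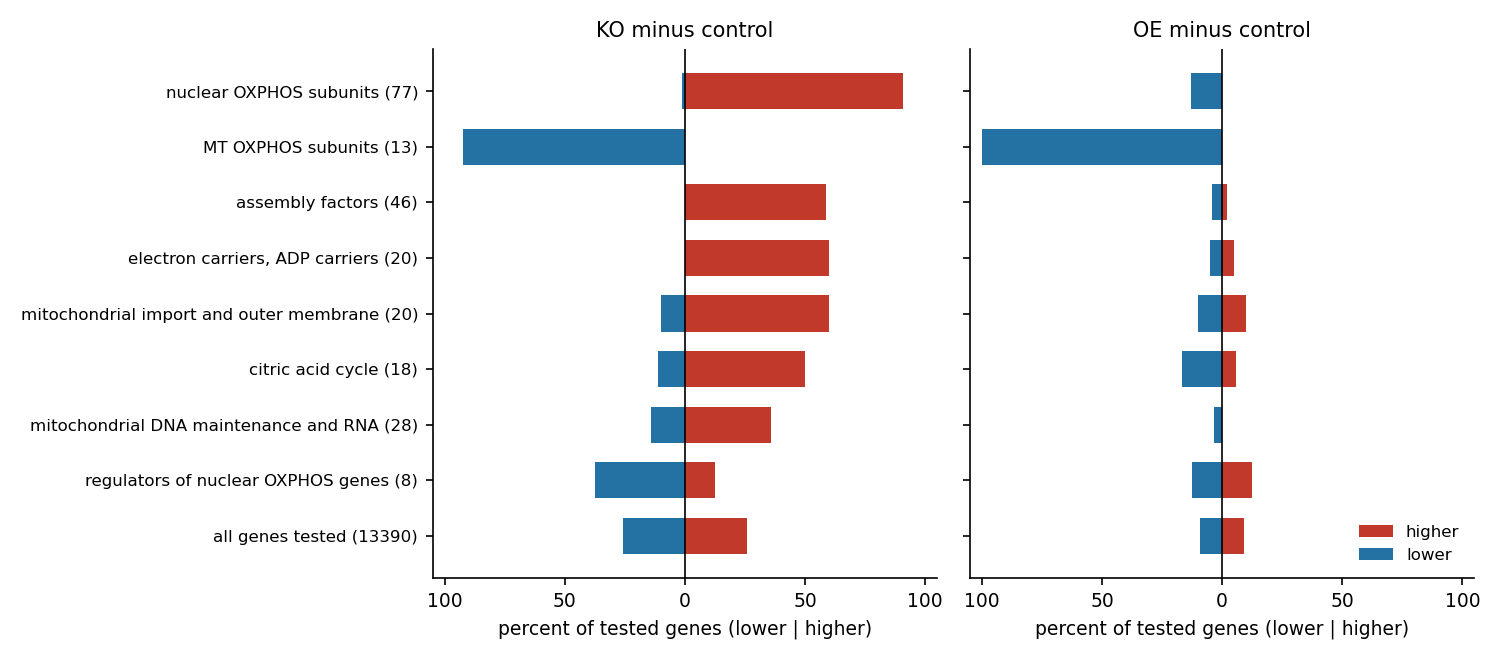
Percent of tested genes called higher (right of 0) and lower (left of 0) in KO minus control and OE minus control, for the nuclear and MT subunits, 6 lists of related mitochondrial genes, and all genes tested, with the number tested in brackets. In KO the nuclear subunits had 90.9% called higher and the MT subunits 92.3% called lower, against 26.0% and 25.9% of all genes.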

How the data were processed

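Libraries of N/TERT cells were made from poly-A RNA and read as pairs of 150 bases, per the labels. The authors deposited whole-number counts of reads per gene, made with featureCounts of Subread (version 1.5.2 per the file headers) on Ensembl release 101 and GRCh38. Tools listed in the submitters' processing notes are DESeq2, FastQC, Subread, featureCounts 0.1.0 and HISAT2 1.03, so versions of featureCounts differ between sources. Per the file headers, featureCounts ran with default handling of strand, mates, multi-mapping reads and shared exons, so mates may be counted separately, ambiguous reads are dropped, and near-identical or antisense genes are uncertain.

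Symbols came from a gene table (60401 identifiers matched), and gene types and GC content from GENCODE release 29 (58453 genes; GC for 99.6% of tested genes). Counts were tested with edgeR 4.0.16 in R 4.3.3 on all 9 libraries, with TMM scaling, filterByExpr at a minimum count of 10 (13390 genes), the quasi-likelihood test, two-sided, and Benjamini-Hochberg adjustment over all genes tested. An adjusted p under 0.05 counted as a call. The common biological coefficient of variation was 10.2%. CPM are TMM-scaled and relate to the counts of tested genes. In the trend-removed fit, a loess surface (span 0.3) over log2 exon length and GC content, fitted in each library, entered as an offset. Exact permutation over 3 against 3 libraries cannot give a p below 0.1, so no such test was used. The statistics were tested on simulated data.

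The members and lists were chosen with earlier results of these data known. Genes were named by rule: all MT members, the SDH genes, the up to 2 largest rises and falls in each other complex at 5 CPM or more, members of opposite sign in KO and OE, isoforms of restricted tissues, read-through genes, and up to 3 genes of each list by p in each comparison. Other names are marked as chosen after their values were seen. Alternatives were another scaling, filter, tool, threshold or set of libraries, offsets for length, and a block for the replicate number. Limits of a count of 0 use 3 counts per library, and reads are not independent molecules. Columns of other series numbered 0.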

Additional observations from a re-analysis of the deposited data

How the results depend on the processing

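The nuclear rise and the MT fall in KO kept their direction and their counts within 1.5 times under every alternative run. The single nuclear member called lower, NDUFA13, was lost (0 lower) with a minimum count of 50, with only the groups compared in the fit or at an adjusted p under 0.01, in KO against control and in KO against OE; leaving out 1 library gave 0 to 1 in each. Nuclear members lower in OE numbered 6 with only the groups compared and 1 at an adjusted p under 0.01, and leaving out 1 library gave 1 to 32 as fitted and 2 to 26 in the trend-removed fit (libraries left out within the trend-removed fit were chosen after seeing the data). MT members lower in OE numbered 6 to 13 in the trend-removed fit with 1 library left out, with 7 without OE replicate 3, 8 without control replicate 2 and 6 without control replicate 3. In KO against OE, MT members called higher numbered 0 with the length offset and with the length and GC offset. They also numbered 0 with that offset and the replicate block. Leaving out 1 library gave 2 to 3 as fitted and 0 in the trend-removed fit. MT members called lower numbered 13 with the length and GC offset and replicate block. With 1 library left out, they numbered 6 to 9 as fitted and 11 to 13 in the trend-removed fit. Per kilobase the ratio of MT to nuclear RNA was 1.73 in KO, 4.05 in OE and 5.28 in control. That scaling leaves the KO trend over exon length in place. Without the overlapping genes MT-ATP8, MT-ATP6, MT-ND4L and MT-ND4, the MT OXPHOS level in OE was 8478 CPM and the MT OXPHOS level in control 12353 CPM, with ratios of 1.27 in OE and 1.64 in control. The sums without these genes and the per-kilobase ratios differ from the main values by construction. The cause of the shifts in the counts of calls was not tested.

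Replicate numbers did not pair the libraries: same-numbered libraries correlated between -0.077 and 0.066. With the replicate block, 70 nuclear members were higher, 1 nuclear member lower and 12 MT members lower in KO against control, and 11 nuclear and 13 MT members were lower in OE against control. Over 100 results for named genes, 2700 values under alternatives kept their call, 261 lost it and 39 gained it. In KO against OE, the call of MT-ND3 changed sign. It was higher in KO as fitted (log2 fold change 0.35) and lower in the trend-removed fit (-0.32).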
